A study of Mus musculus with 24 samples.

Results

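The genes described are the subunits of the oxidative phosphorylation machinery, taken as every protein-coding gene in the count files whose mouse symbol starts with Nduf followed by a, b, c, s or v and a number, is Sdha, Sdhb, Sdhc or Sdhd, starts with Uqcr, with Cox and a number from 4 to 8 or with Atp5, or is a mitochondrial Nd, Co, Cytb or Atp gene. This rule found 98 members among 55385 genes in the files, of which 21897 are protein-coding. Of the members, 85 are encoded in the nucleus (35 of complex I, 4 of complex II, 8 of complex III, 20 of complex IV and 18 of complex V) and 13 in the mitochondrial genome (7 of complex I, 1 of complex III, 3 of complex IV and 2 of complex V). Ndufa4 and Ndufa4l2 were counted with complex IV, where the protein resides. Hippocampal RNA of 24 adult mice, male and female, was sequenced, with 4 mice in each of 6 groups. All mice carried Tsc1f/f, in which both Tsc1 alleles can be removed by Cre, and all received tamoxifen. The control mice lacked the Camk2a-CreERT2 transgene (Tsc1-Cre-) and were taken on day 8 after the start of tamoxifen. The other groups carried it (Tsc1-Cre+) and therefore lost Tsc1 in CAMK2A-positive, mostly excitatory, neurons only. They were taken on day 4, 6, 8 or 13, and the last group was taken on day 13 after daily 10 mg/kg rapamycin, an inhibitor of mTORC1, from day 4.

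The respiratory chain passes electrons from NADH (complex I) and succinate (complex II) through ubiquinone to complex III, then by cytochrome c to complex IV, where oxygen is reduced to water. Complexes I, III and IV pump protons out of the mitochondrial matrix, and ATP synthase (complex V) lets them flow back and makes ATP. All complexes except II are built from both genomes, with the mitochondrial genes transcribed inside the organelle by a polymerase of their own and the nuclear genes scattered over the chromosomes. TSC1 and TSC2 together restrain mTORC1, a kinase that is known to promote mitochondrial gene expression and protein synthesis, and neurons rely on oxidative phosphorylation for most of their ATP.

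Because the nuclear members moved together in these data, their promoters are shown before the values. A RefSeq promoter on GRCm38.p6, from 250 bases before to 50 bases after the start, was matched to 68 of the nuclear members. A site of the regulator NRF1 (GCGCA, then any base, then GCGC) was found on either strand in 25% of these 68 and in 5.19% of all 27025 genes with a promoter. CCGGAAG, the site of ETS factors such as GABPA, was found in 23.5% against 9.93%, AAGATGG, a YY1 site, in 16.2% against 7.28%, and TGACGTCA, a cyclic AMP response element, in 5.88% against 2.03%. The GC box GGGCGG (41.2% against 38.2%) and the E-box CACGTG (8.82% against 8.09%) were about as frequent as in other genes, and TGATGNAA, a form of the ATF4 site, was in none of the 68 against 4.51%. These are matches of letters, not sites shown to be bound. The 120 bases before the start are printed for the 3 members with an NRF1 match there and the largest day 13 fold change, and for Sdha, which has the most matches, with NRF1 and ETS letters in capitals.
Cox6a1, chr5:115348959-115349078, minus strand: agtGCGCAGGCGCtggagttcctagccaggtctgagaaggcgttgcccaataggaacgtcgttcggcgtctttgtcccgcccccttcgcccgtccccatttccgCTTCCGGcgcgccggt
Atp5k, chr5:108434400-108434519, minus strand: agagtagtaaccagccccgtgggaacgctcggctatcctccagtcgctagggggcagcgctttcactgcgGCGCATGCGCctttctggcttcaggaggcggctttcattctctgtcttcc
Ndufs5, chr4:123718187-123718306, minus strand: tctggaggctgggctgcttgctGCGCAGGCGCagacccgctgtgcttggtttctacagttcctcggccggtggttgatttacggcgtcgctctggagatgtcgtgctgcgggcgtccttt
Sdha, chr13:74350241-74350360, minus strand: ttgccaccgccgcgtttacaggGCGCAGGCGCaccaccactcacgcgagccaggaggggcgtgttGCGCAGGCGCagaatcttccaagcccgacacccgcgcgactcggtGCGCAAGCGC

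Sequencing depth was 28208561 to 126435936 counts per mouse (median 55582027). Tsc1 itself was at 102.6 to 109.5 CPM (counts scaled to a common library size by the trimmed mean of M values) in the controls and at 57.4 to 81.7 CPM in the 20 Tsc1-Cre+ mice, without overlap. The identifiers of the mice fall into 12 series, of which control and day 8 share theirs while every other group has its own, so that for the other groups the group and the series cannot be told apart. The tissue carried all markers of excitatory neurons, interneurons and glia. Summed over Aldh1l1, Gja1, Aqp4 and Slc1a3, astrocyte markers were at 861.4 to 925.4 CPM in the controls and at 675.0 to 825.1 CPM in the other groups, and 4 of 4 were lower on day 6. Single astrocyte markers went both ways on day 8, with 2 of 4 above 0 (log2 fold changes -0.56 to 0.21, 2 called lower). The same held on day 13 (2 of 4 above 0, -0.93 to 0.35, 1 called lower). On day 4 and under rapamycin, 1 of 4 was called lower against control. Microglia markers summed to 165.2 to 199.5 CPM in the controls and lay below all controls on day 6 (147.3 to 156.2 CPM, 3 of 4 lower), on day 8 (148.2 to 162.3 CPM, 2 of 4 lower) and under rapamycin (121.0 to 140.2 CPM, 3 of 4 lower). Endothelial markers were at 170.4 to 190.4 CPM in the controls and lay below them on day 6 (155.8 to 162.5 CPM, 2 of 4 lower) and under rapamycin (146.0 to 156.5 CPM, 1 of 4 lower). Oligodendrocyte markers (1552.6 to 3309.8 CPM over all mice), endothelial markers (172.6 to 197.0 CPM on day 13), excitatory neuron markers (2264.0 to 3679.3 CPM) and interneuron markers (304.0 to 450.7 CPM) overlapped between the control and day 13 groups. Taken singly, 1 of 4 excitatory neuron markers was called higher on each of days 4, 6, 8 and 13 (0.73 on day 13, list median -0.053). Under rapamycin, 1 of these 4 was lower than on day 13. Of the endothelial markers, 1 of 4 was lower on day 8 and 1 of 4 higher on day 13, both against control. Under rapamycin, 2 of 4 endothelial markers were lower than on day 13. Against day 13, rapamycin mice also had 2 of 4 astrocyte markers lower and 1 higher (-0.73 to 0.89). In the same comparison 2 of 4 microglia markers were lower (list median -0.410). On day 4, 1 of 4 microglia markers was lower than in the controls. Of the oligodendrocyte markers, 1 of 4 was lower on day 8 and 2 of 4 under rapamycin, both against control. Choroid plexus markers, led by Ttr, ranged from 39.3 to 1683.5 CPM within and between groups, with 0 of 6 passing the test in any comparison. The part of these lists in the results below was not tested, and in bulk tissue fewer cells of a type and less RNA per cell cannot be told apart.

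Nuclear subunit mRNA rose from day 6 to day 13 after Tsc1 deletion and overlapped with the controls under rapamycin, while mitochondrial mRNA spread widely within each group. For each mouse, the mean of log2 CPM relative to the control mean was taken over the 77 nuclear members with at least 1 CPM on average. It ran from -0.033 to 0.041 in the controls, from 0.009 to 0.089 on day 4, from 0.137 to 0.213 on day 6, from 0.242 to 0.368 on day 8 and from 0.376 to 0.572 on day 13. Day 4 overlapped with control, and from day 6 on each group lay above the one before. The rapamycin mice ran from -0.174 to 0.038, overlapping with control and below every day 6, 8 and 13 mouse. Over the 7 mitochondrial members that could be counted, the same mean ran from -0.150 to 0.171 in the controls, from -0.205 to 0.242 on day 8 and from -0.085 to 0.320 on day 13, and all groups overlapped with control. In terms of all counts, nuclear members took 0.564% to 0.592% in the controls and 0.677% to 0.775% on day 13, and the mitochondrial members 0.981% to 1.12% and 0.954% to 1.15%. The ratio of mitochondrial to nuclear counts was 1.71 to 1.98 in the controls and at most 1.54 on day 13, without overlap. Of the nuclear members in this mean, 67 of 77 had group means in the order control, day 6, day 8, day 13, and 75 of 77 were highest on day 13.

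**Figure D1:**
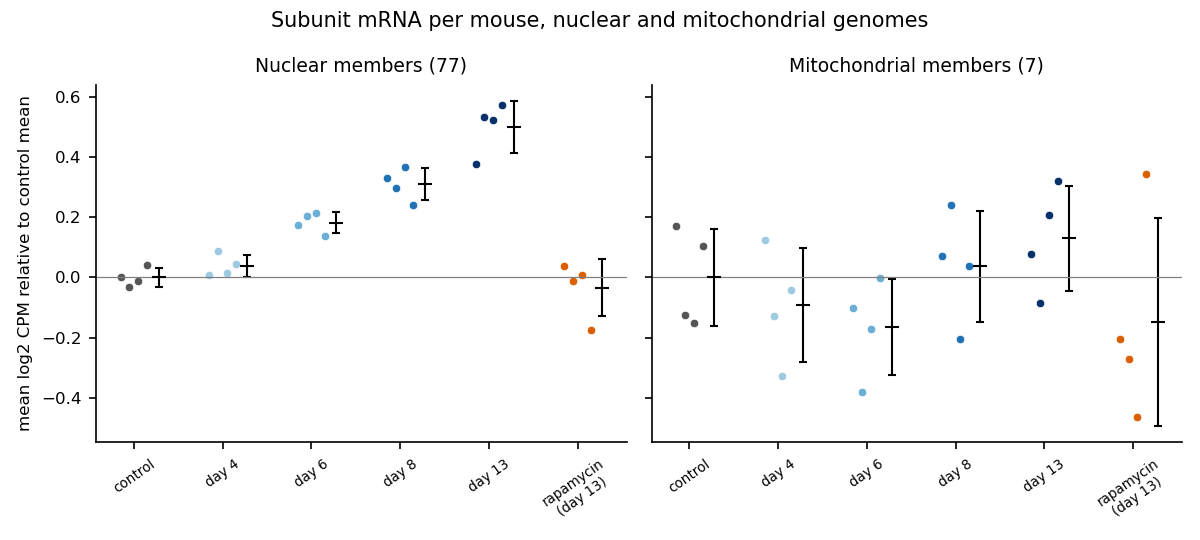
Each point is 1 mouse and gives the mean log2 CPM of the nuclear members (left, 77 genes) or the mitochondrial members (right, 7 genes) relative to the control mean, and the bars give the group mean and SD of 4 mice. The nuclear means climb to 0.376 to 0.572 on day 13, and the rapamycin mice overlap with control, whereas the mitochondrial means of all groups overlap with control.

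Gene by gene, edgeR's quasi-likelihood test with Benjamini-Hochberg adjustment over all genes tested called members at an adjusted p under 0.05. The filter on low counts passed 93 of the 98 members, or 94 on day 13 against control. Across the 6 groups, 77 of 95 tested members differed (74 of 83 nuclear and 3 of 12 mitochondrial), where 41.9% of all genes did. On day 4, 2 members were higher and 1 was lower, against 2.61% and 1.56% of all genes tested. On day 6, 42 were higher and 0 lower, against 6.24% and 3.81%. On day 8, 57 were higher and 0 lower, against 8.41% and 4.87%. On day 13, 69 of 94 were higher and 0 lower, against 15.6% and 11.3%. Of protein-coding genes alone, 1505 of 15815 were higher on day 6, 2023 of 15841 on day 8 and 3612 of 15844 on day 13. The counts of 0 lower members stood beside 2 (mt-Nd2 and mt-Cytb) on day 6, 1 (Cox4i2) on day 8 and 0 on day 13 at an unadjusted p under 0.05, and DESeq2 also called 0 lower on these days. On day 6, both mitochondrial genes were called lower with the replicate block, with no filter and without day 6 mouse D, and mt-Cytb without control mouse C. On day 8, Cox4i2 was called lower in the fit of all 24 mice and without control mouse B. The changes were small in size. Those past 0.5 on the log2 scale numbered 1 on day 6, 5 on day 8 and 33 on day 13, where 0.647%, 2.15% and 8.4% of all genes were that much higher. The median log2 fold change of the nuclear members was 0.033, 0.152, 0.271 and 0.464 on days 4, 6, 8 and 13, and that of all genes tested -0.005, -0.018, -0.025 and -0.040. Over protein-coding genes it was 0.000, 0.002, 0.033 and 0.077. The day 6 count fell to 11 when all 24 mice shared one estimate of the spread. In the day 8 comparison, where control and day 8 mice come from the same 2 identifier series, the fit with the series as a block called 55 members. It kept all 18 calls on named members, some of which were named for their large rises in this comparison.

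Nuclear members of all 5 complexes were among those that rose. In complex I, 15 of 35 nuclear members rose on day 6, 26 on day 8 and 33 on day 13, with medians of 0.154, 0.301 and 0.446. Complex II, the only one without a mitochondrial gene, had 2 of 4, 2 of 4 and 3 of 4, with medians of 0.082, 0.200 and 0.340. Complex III had 6, 7 and 8 of 8, with medians of 0.218, 0.315 and 0.517. Complex IV had 8, 9 and 11 of 19 (0.116, 0.212 and 0.469), its uncalled genes being mainly tissue isoforms at low counts. Complex V had 11, 13 and 13 of 17 (0.229, 0.290 and 0.479). In the per-mouse means on day 13, complex II ran from 0.221 to 0.428 and complex IV, over its 13 members of at least 1 CPM, from 0.506 to 0.744. No test of a difference between complexes was made.

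**Figure D2:**
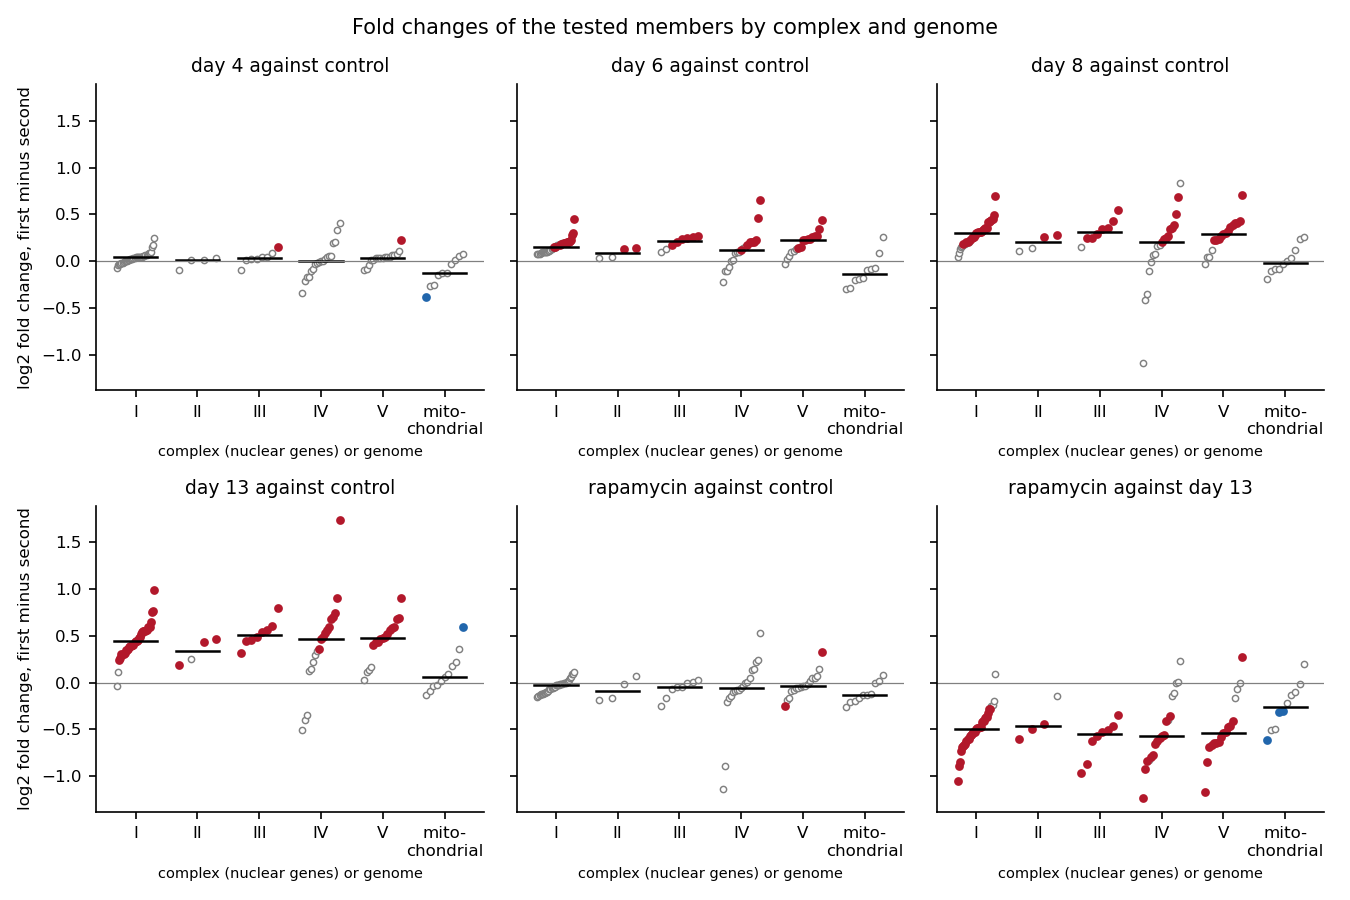
Each point is the log2 fold change of 1 tested member in the comparison named above the panel, grouped by complex for nuclear genes and pooled for mitochondrial genes. Filled points passed an adjusted p under 0.05 (red nuclear, blue mitochondrial), open points did not, and black lines are medians. On day 13 the nuclear medians lie between 0.340 and 0.517, and against day 13 the rapamycin medians lie between -0.568 and -0.464.

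In complex I, Ndufb6, an accessory subunit of the membrane arm, rose most. It was at 14.3, 14.2, 16 and 17.2 CPM in the controls, at 20.7, 22.5, 22.1 and 19.3 CPM on day 6, at 25.8, 24.4, 27.9 and 23.1 CPM on day 8 and at 26.9, 33.7, 32.2 and 31.4 CPM on day 13. Every day 6, day 8 and day 13 mouse was above every control, but Ndufb6 was named by a rule that required this. The log2 fold changes were 0.45 ± 0.0742 (SE, adjusted p = 0.00221), 0.70 ± 0.0833 (adjusted p = 0.00063) and 0.99 ± 0.099 (adjusted p = 0.000481). Ndufb6 shares 257 exonic bases with Smim27 on the opposite strand, and the strand setting of the counting is not given in the sources used here. Among the subunits that carry the catalysis, Ndufs1, which holds iron-sulfur clusters, rose by 0.31 on day 13, and Ndufv1, which binds NADH, by 0.39. Chosen after their values were seen, the core subunits Ndufv2 (0.65) and Ndufs8 (0.55) rose by more. Over the 7 nuclear core subunits the day 13 median was 0.314 (range 0.11 to 0.65), and over the 28 accessory subunits 0.456 (range -0.03 to 0.99), a difference that was not tested. With offsets for GC content and exon length these medians were 0.313 and 0.518. Chosen after their values were seen, Ndufb2 (-0.03) and Ndufs3 (0.11) were the only tested nuclear members of complex I that did not pass on day 13.

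Complex II oxidises succinate and is also an enzyme of the citric acid cycle. Sdha, the flavoprotein, had the smallest change of the 4 subunits and was at 266.7, 249.8, 255.6 and 256.7 CPM in the controls and 284.3, 291.3, 296.1 and 319.7 CPM on day 13. The day 13 mice were all above the controls, and the log2 fold change was 0.19 ± 0.0634 (adjusted p = 0.0489), but the call was lost in 6 of 8 fits that left out 1 mouse. Sdhb, the iron-sulfur subunit, rose by 0.13, 0.26 and 0.47 on days 6, 8 and 13. Sdhd, a membrane anchor, rose by 0.14, 0.28 and 0.43. The day 6 calls of Sdhb and Sdhd were each lost in 6 of 8 fits that left out 1 mouse. The other anchor, Sdhc, was at 0.25 on day 13 and did not pass.

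In complex III, every nuclear member had risen by day 13. Uqcrq, a small subunit, was at 23.9, 23.6, 23.9 and 26.6 CPM in the controls, at 37.2, 34.9, 40 and 33.1 CPM on day 8 and at 39.2, 45.9, 44.4 and 43.3 CPM on day 13. Every day 8 and day 13 mouse was above every control, and the log2 fold change was 0.55 ± 0.0695 on day 8 (adjusted p = 0.000889) and 0.80 ± 0.0749 on day 13 (adjusted p = 0.000358). Uqcrc1, a core protein of the matrix arm, was among the earliest members to pass. It was at 121.2, 120.7, 120.9 and 124.0 CPM in the controls and at 128.1, 136.2, 137.9 and 136.9 CPM on day 4, with a log2 fold change of 0.15 ± 0.0334 (adjusted p = 0.029). Its day 4 call was lost in 6 of 8 fits that left out 1 mouse, and the later values were 0.24, 0.36 and 0.49. Uqcrfs1, the Rieske iron-sulfur protein that hands electrons to cytochrome c1, rose by 0.26, 0.25 and 0.46, the day 8 call being lost in 5 of 8 such fits.

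In complex IV, which reduces oxygen, 11 of 19 tested nuclear members had risen by day 13. Cox5a, a subunit of the matrix side, was at 19.8, 20.4, 22.6 and 22.1 CPM in the controls and at 34.4, 35.8, 34.4 and 29.2 CPM on day 6. Its day 6 fold change of 0.65 ± 0.0675 (adjusted p = 8e-05) was the largest among called members that day, and it was the one member past 0.5. Later values were 0.69 on day 8 and 0.90 on day 13. Of its transcript, 21.4% of 76-base windows also occur in another annotated gene. Cox5b, which binds zinc, rose by 0.46, 0.50 and 0.75. Cox4i1, the common form of subunit 4, followed later. It was at 0.01 on day 6 and rose by 0.21 on day 8 and by 0.47 on day 13. Ndufa4, a subunit first assigned to complex I, rose by 0.23, 0.24 and 0.49.

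Several complex IV subunits have a second gene used in heart, skeletal muscle or other tissues. Cox6a2, the heart and muscle form of subunit 6a, was at 0.917, 0.801, 1.51 and 1.46 CPM in the controls and at 2.78, 6.28, 1.82 and 4.97 CPM on day 13. All day 13 mice were above all controls, and their values spread from 1.82 to 6.28 CPM. The log2 fold change was 1.74 ± 0.38 (adjusted p = 0.0101), the largest of any member, and ran from 1.44 to 2.00 with 1 mouse left out. Per base of annotated exon, the common form Cox6a1 stayed 56.8 to 104 times as high as Cox6a2 in the controls and 23.4 to 81.2 times on day 13. Cox6a1 itself rose by 0.21, 0.39 and 0.70. The other minor forms stayed low and did not pass on day 13, with Cox4i2 at -0.51, Cox7a1 at 0.13, Cox8b at -0.34 and Ndufa4l2 at 0.15, and each at 1.09 CPM or less in the group mean. Their main forms were far higher, and on day 13 Cox7a2 had risen by 0.53 while Cox8a, at 0.30, did not pass. Chosen after their values were seen, Cox6b2 (-0.40), Cox7b2 (0.34) and Cox7a2l (0.22) were the other tested members of complex IV that did not pass. Cox8c was listed at 0 in every mouse.

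**Figure D3:**
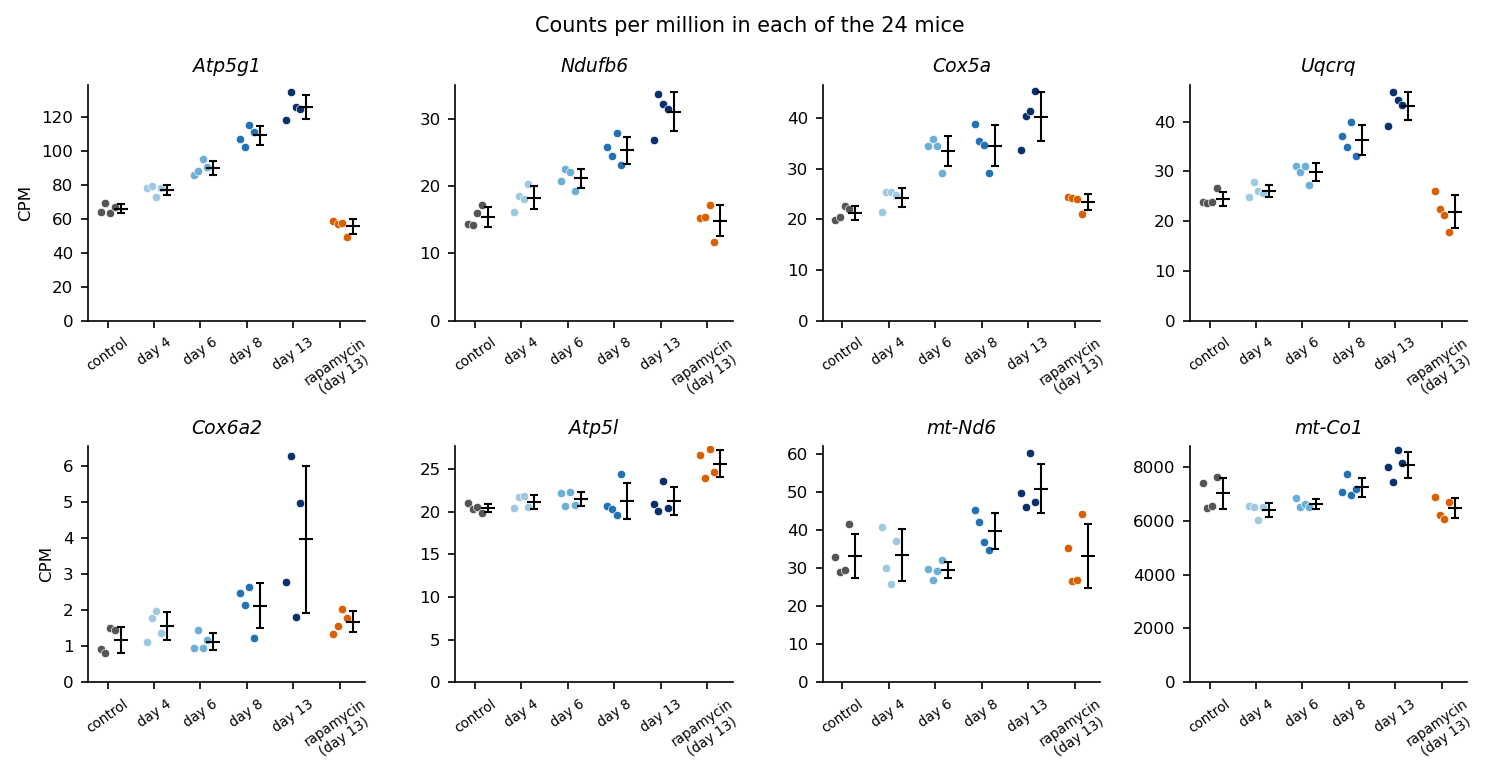
CPM of 8 members in each mouse, on axes that start at 0, with the group mean and SD of 4 mice beside the points. Atp5g1, Ndufb6, Cox5a and Uqcrq climb to day 13 and are lower under rapamycin, Cox6a2 is low and variable, Atp5l is highest under rapamycin, and mt-Nd6 but not mt-Co1 passed on day 13.

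In complex V, Atp5g1, 1 of 3 genes for the same mature subunit c of the rotating ring, changed in all 6 comparisons. It was at 64.2, 69.1, 63.5 and 67.1 CPM in the controls, at 78, 79.4, 72.7 and 78.4 CPM on day 4, at 85.7, 88.4, 95.3 and 90.3 CPM on day 6, at 107.3, 102.5, 115.6 and 111.4 CPM on day 8 and at 118.0, 134.9, 126.2 and 124.9 CPM on day 13. No mouse of any of these groups overlapped with a mouse of the group before. On the log2 scale it rose by 0.23 ± 0.04 (SE, adjusted p = 0.00985) at the earliest time, by 0.44 ± 0.0403 and 0.71 ± 0.0528 at the next, and by 0.91 ± 0.0616 (adjusted p = 0.000104) by day 13. The day 4 call held without any 1 mouse but not when all 24 mice shared one spread (adjusted p = 0.13). The other genes for subunit c differed from it. Atp5g3 rose by 0.34, 0.37 and 0.47 on days 6, 8 and 13, and Atp5g2, at 0.02, 0.04 and 0.14, did not pass. Per base of annotated exon, Atp5g1 was 0.405 to 0.426 times Atp5g3 in the controls and 0.502 to 0.645 times on day 13, without overlap. The exons of all annotated transcripts (4912 and 2181 bases) need not match the expressed mRNA, so only the change between groups is read. In CPM the control means were 66 and 70.6. Of the catalytic head, Atp5b, the beta subunit, rose by 0.24, 0.43 and 0.56, and Atp5a1, the alpha subunit, by 0.29 and 0.43 on days 8 and 13. Chosen after their values were seen, Atp5j (0.17), Atp5l (0.03) and Atp5s (0.11) were the other tested members of complex V that did not pass on day 13. A further Atp5o identifier, whose exons overlap Donson and the main Atp5o gene, was listed at 0 in every mouse.

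Within the nuclear members, those with and without the NRF1 letters had similar medians. The 17 members with an NRF1 match had a day 13 median of 0.427 and the 51 without one 0.478, and for the ETS letters the medians were 0.483 and 0.463. Sdha, with 3 NRF1 positions in the stretch printed above, had one of the smallest rises, and Ndufb6 and Cox5a, among the largest, had none. Cox6a1 and Atp5k, with 1 position each, rose by 0.70 and 0.60. Whether the letters bear on the rise was not tested. Across the 77 nuclear members the rank correlation of the day 13 fold change with mean CPM was 0.045 and with exon length -0.314. Across 15844 protein-coding genes the latter was -0.136. These correlations are over genes of the same libraries and describe them only.

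Not all mitochondrial genes could be counted. By their mean CPM, 7 of the 13 genes were well covered, with mt-Co1 at 7012.5, mt-Nd1 at 1123.9, mt-Cytb at 924.9, mt-Nd4 at 410.6, mt-Nd5 at 398.4, mt-Nd2 at 303.0 and mt-Nd6 at 33.2 CPM in the controls. The remaining 6 were almost empty, with mt-Nd3 at 5.94, mt-Co3 at 1.21, mt-Co2 at 0.425, mt-Nd4l at 0.177, mt-Atp6 at 0.0968 and mt-Atp8 at 0.0395 CPM. The mitochondrial genome is transcribed as long precursors from which these genes are cut, and mt-Co2 and mt-Co3 encode core subunits of complex IV beside mt-Co1. For mt-Co3, mt-Co2, mt-Atp6, mt-Nd4l and mt-Nd3, between 97.8% and 99.9% of all 76-base windows of the transcript also occurred letter for letter in a nuclear pseudogene on chromosome 1 (in that order Gm28437, Gm28661, Gm10925, Gm10222 and Gm28438). The share was 61.5% in mt-Nd4, 39.4% in mt-Co1, 5.61% in mt-Nd2, 1.54% in mt-Nd5 and 0 in mt-Nd1, mt-Cytb, mt-Nd6 and mt-Atp8. The pseudogenes lie in 1 block of 4663 bases at chr1:24611535-24616197 on GRCm38, in the same order as their mitochondrial counterparts, and mt-Atp8 has its place in the 233 bases between Gm28661 and Gm10925, where no gene is annotated. The pseudogenes themselves were also near 0, with Gm28437 at 0.976 and Gm10925 at 0.255 CPM on average. How reads with several matching places were counted is not given in the sources used here. The start of mt-Co3, chrM:8607-8682, shows the identity, with every letter shared with Gm28437.
mt-Co3: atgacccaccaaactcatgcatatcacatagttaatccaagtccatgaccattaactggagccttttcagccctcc

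**Figure D4:**
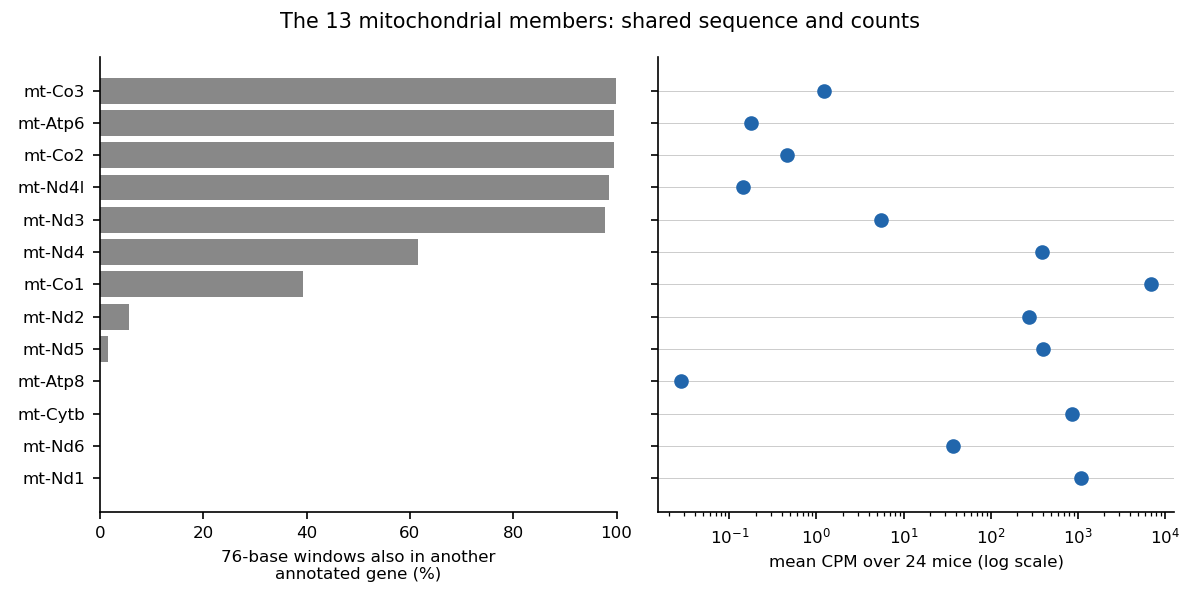
Left, the share of 76-base windows of each mitochondrial transcript that also occurs in another annotated gene. Right, the mean CPM over the 24 mice on a log scale. The 5 genes with 97.8% to 99.9% of shared windows all lie under 6 CPM, as does mt-Atp8, while the other 7 lie between 33.2 and 7012.5 CPM in the controls.

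Of the mitochondrial genes, edgeR called 1 of 11 on day 13 and 0 of 10 on days 6 and 8, where 2 on day 6 and 0 on day 8 had an unadjusted p under 0.05. DESeq2 also called 0, while other fits called mt-Nd2 and mt-Cytb lower on day 6 as given above, and on day 8 mt-Nd6 was called higher with the offsets described below and 1 gene was called higher without control mouse D or day 8 mouse B. The medians were -0.129, -0.137, -0.017 and 0.057 on days 4, 6, 8 and 13, and over the 7 well covered genes -0.126, -0.182, 0.000 and 0.057. The former moved with single mice. On day 4 the median was -0.070 without control mouse A, -0.073 without day 4 mouse C and -0.201 without day 4 mouse A. On day 6 it was -0.091 without control mouse D, and on day 8 it ran from -0.098 without day 8 mouse B to 0.062 without control mouse A. On day 13 it was -0.022 without day 13 mouse D, 0.025 without control mouse B, 0.163 without control mouse A and 0.194 without day 13 mouse B. mt-Co1, a catalytic subunit of complex IV and the most abundant member, was at 7397.9, 6481.7, 6561.0 and 7609.1 CPM in the controls and at 8003.1, 7451.4, 8643.6 and 8137.3 CPM on day 13. These groups overlapped, and the log2 fold change of 0.18 ± 0.0861 did not pass (adjusted p = 0.144). mt-Nd6, the only member on the other strand of the circle, was at 32.8, 28.9, 29.6 and 41.6 CPM in the controls and at 49.7, 46, 60.3 and 47.4 CPM on day 13. The day 13 mice were all higher, by 0.59 ± 0.134 on the log2 scale (adjusted p = 0.0114). On day 4, mt-Nd3 was lower by edgeR (-0.38 ± 0.0929, adjusted p = 0.0386), at 4.2 to 4.76 CPM against 5.31 to 6.48 CPM, but 97.8% of its windows are shared and the call was lost in 7 of 8 fits that left out 1 mouse. Among the rest, mt-Nd1 was at 0.09, mt-Nd2 at -0.09, mt-Nd4 at -0.04, mt-Nd5 at 0.02 and mt-Cytb at 0.06 on day 13.

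The contrast between the genomes depended on how composition was handled. Mitochondrial genes have GC fractions of 0.319 to 0.411, against a median of 0.503 over the nuclear members. With offsets for GC content and exon length in each library, the mitochondrial median on day 13 went from 0.057 to 0.366 and the nuclear one from 0.464 to 0.496. With the offsets 65 nuclear and 4 mitochondrial genes passed, the latter being mt-Nd6 at 1.08, mt-Nd1 at 0.41, mt-Nd3 at 0.40 and mt-Co1 at 0.37. Over all genes the day 13 median with the offsets was 0.006, and the share of all genes called with them is not given here. On day 8 the mitochondrial median went from -0.017 to 0.129 with 1 call, and on day 6 from -0.137 to -0.040 with none. The nuclear rise was found both ways, while among mitochondrial genes on day 13 only mt-Nd6 passed both ways. Scaling over nuclear genes alone lost none of the 86 calls on named members, some of which were named for their large differences in these comparisons.

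Under rapamycin, the subunits were close to the controls and far from the untreated day 13 mice. Rapamycin and control mice differ in genotype and in the day they were taken as well as in treatment. Against control, 1 member was higher and 1 lower of 93 tested, where 1.26% and 2.31% of all genes were. The nuclear median was -0.048 and the mitochondrial one -0.131. Rapamycin mouse D stood apart, with the lowest nuclear mean (-0.174) and the highest mitochondrial one (0.344) of its group and a ratio of mitochondrial to nuclear counts of 2.18 against 1.5 to 1.65 in the other rapamycin mice. Without it, the nuclear median was 0.003, the mitochondrial one -0.298, and 5 members passed, with mt-Nd2 at -0.52, mt-Nd4 at -0.45 and mt-Cytb at -0.37 joining the pair called before. The count was 1 without control mouse C, rapamycin mouse B or rapamycin mouse C. The member below control was Atp5g1, at 58.7, 56.9, 57.5 and 49.3 CPM, under all controls (-0.25 ± 0.0583, adjusted p = 0.0356), a call lost when 1 of 5 mice was left out. The member above control was Atp5l, for subunit g, at 26.6, 24, 27.3 and 24.7 CPM against 21, 20.3, 20.6 and 19.9 CPM in the controls (0.33 ± 0.0608, adjusted p = 0.0111). Of the windows of Atp5l, 75.7% occur in other annotated genes.

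Against day 13, 70 members were lower and 1, Atp5l, was higher under rapamycin, where 17.7% and 13.1% of all genes were lower and higher. Of 15648 protein-coding genes, 3986 were lower and 1509 higher, with a median of -0.107. The Atp5l difference of 0.28 ± 0.0933 (adjusted p = 0.0435) was lost in 7 of 8 fits that left out 1 mouse. Of the 70, 45 were past -0.5, where 11.2% of all genes were. The nuclear median was -0.533, with complex medians of -0.494, -0.464, -0.548, -0.568 and -0.540 for I to V. Atp5g1 was lower by 1.17 ± 0.078 on the log2 scale (adjusted p = 9.63e-05), Ndufb6 by 1.05 ± 0.127 and Uqcrq by 0.97 ± 0.117, each without overlap between the mice. The rule that picked these 3 largest falls required no overlap. Cox6a2 was lower by 1.23 ± 0.341 (adjusted p = 0.0219), with overlapping mice, and its call was lost without day 13 mouse B or rapamycin mouse A, B or D. Of the core genes, Ndufs1 was at -0.28, Ndufv1 at -0.38, Sdhb at -0.49, Uqcrc1 at -0.57, Uqcrfs1 at -0.46, Cox4i1 at -0.56, Atp5a1 at -0.47 and Atp5b at -0.63, all called. Sdha, at -0.14, was not. Among mitochondrial genes, mt-Co1 fell by 0.31 (adjusted p = 0.0209), mt-Nd1 by 0.30 (adjusted p = 0.0373) and mt-Nd6 by 0.61 (adjusted p = 0.0221), and these calls were lost in 3, 6 and 2 of 8 fits that left out 1 mouse. For mt-Co1 these were rapamycin mice B, C and D, and for mt-Nd6 rapamycin mice B and C. With the GC and length offsets 8 of 10 mitochondrial genes were lower and their median went from -0.260 to -0.608. Over all genes the median with the offsets was 0.008, and the share called with them is not given here. Without rapamycin mouse D, 62 members were called and the medians were -0.487 for nuclear and -0.415 for mitochondrial genes. The rapamycin against day 13 and the day 13 against control comparisons share the day 13 mice, so that these values are not independent of the rises above.

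Other genes of the pathway, outside the symbol rule, were read from lists by function. Among electron carriers and further subunits, 4 of 9 rose on days 6, 8 and 13. Cycs, the carrier between complexes III and IV, was at 43.3, 43.5, 43.5 and 45.1 CPM in the controls and at 78.1, 82.8, 72.9 and 71.9 CPM on day 13 and rose by 0.29, 0.46 and 0.78 on days 6, 8 and 13. Cyc1, cytochrome c1 of complex III, rose by 0.27, 0.46 and 0.59. Etfa (0.07) and Etfb (0.14), which carry electrons from fatty acid oxidation, did not pass on day 13. The mitochondrial ribosome, which translates only the mitochondrial genes, was the longest list. Of 77 tested Mrpl and Mrps genes, 0 passed on day 4, 12 rose on day 6, 30 on day 8 and 54 on day 13, with a day 13 median of 0.437, and 47 were lower under rapamycin than on day 13 (median -0.418). Of all genes tested, 6.24%, 8.41% and 15.6% were higher on days 6, 8 and 13, and 17.7% were lower under rapamycin than on day 13. The largest was Mrps6 at 1.24.

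Of 14 complex I assembly genes 4 rose on day 13 (median 0.151), led by Ndufaf4 (0.58), and of 25 tested assembly genes of complexes II to V 10 rose (median 0.303), led by Tmem70 (0.63), an ATP synthase assembly factor. Among 23 tested genes of mitochondrial DNA and RNA, 5 rose (median 0.163). On day 13, 15.6% of all genes were higher, to which 5 of 23 is near. Of protein-coding genes, 3612 of 15844 were higher, to which 4 of 14 is also near. Lrpprc, which stabilises mitochondrial mRNAs, rose by 0.42, whereas Tfam, which packages and transcribes the mitochondrial genome, was at 0.24 and Polrmt, the mitochondrial RNA polymerase, at 0.14, and neither passed on day 13. Polrmt had risen by 0.23 on day 4. Of the 9 regulators of mitochondrial biogenesis, 1 rose on day 13, also near the share of all genes. This was Pprc1, a coactivator related to PGC-1alpha that is induced by growth signals, at 0.44, 0.40, 0.37 and 0.61 on days 4, 6, 8 and 13, all called, and lower by 0.66 under rapamycin than on day 13. Ppargc1a, which encodes PGC-1alpha itself, was at 48.2, 47.7, 53.4 and 48.1 CPM in the controls and at 40.7, 35.6, 48.2 and 48.2 CPM on day 13. It did not pass against control (-0.21) and was higher under rapamycin than on day 13 (0.37). Nrf1 (-0.07), Gabpa (0.05), Yy1 (-0.16), Esrra (0.22) and Esrrg (-0.59) did not pass on day 13. Gabpa was called lower on day 6 (-0.21). Under rapamycin against day 13, 2 of the 9 regulators were higher and 3 lower, where 13.1% and 17.7% of all genes were. Among these, Esrrg was higher (0.67) and Esrra lower (-0.29).

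**Figure D5:**
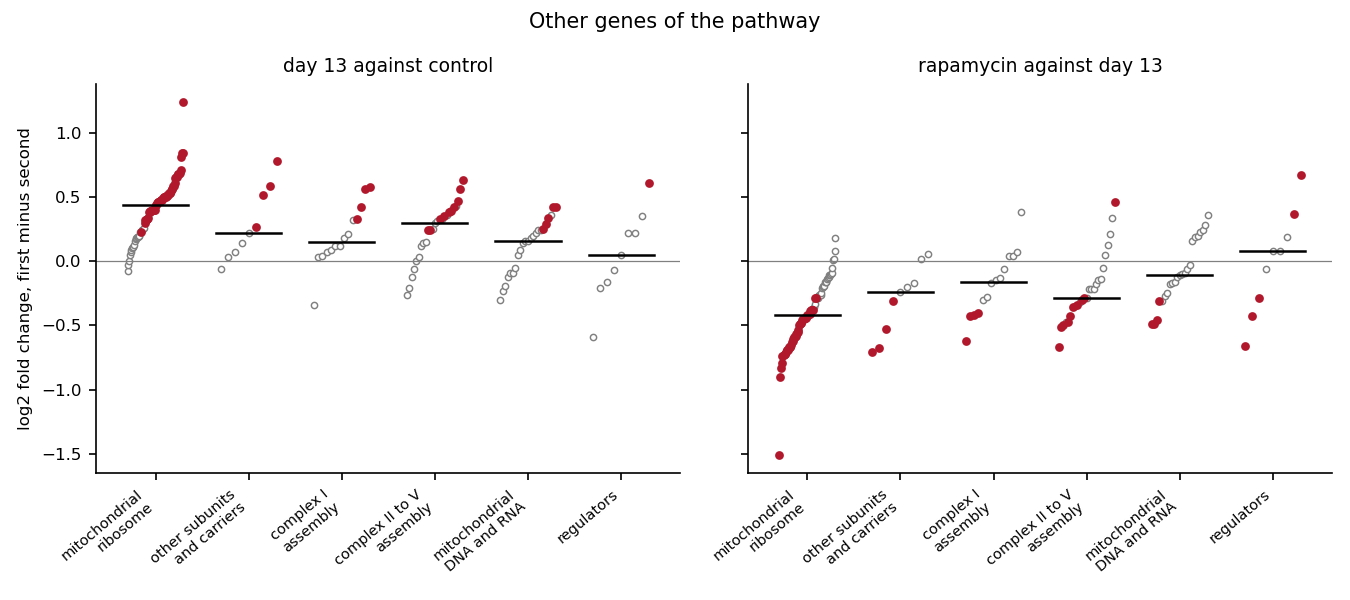
Log2 fold changes of the other pathway genes on day 13 against control (left) and under rapamycin against day 13 (right). Filled points passed an adjusted p under 0.05 and black lines are list medians. The ribosomal list has the largest medians (0.437 and -0.418), and the regulators lie on both sides of 0.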

How the data were processed

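Total RNA of the hippocampus, depleted of ribosomal RNA, was sequenced from 24 mice as stranded libraries. The authors trimmed the reads with cutadapt (1.16.5), mapped them with STAR (2.7.2b) to GRCm38 and counted them per GENCODE gene with featureCounts (1.6.4). They deposited these counts without normalization, as whole numbers per mouse. The strand setting and the handling of reads with several matching places are not given in the sources used here. Counts that overlapping genes or sequence copies could share are named above for some members only. Among the others, windows also found in another annotated gene made up 16.8% in Cox5b, 11.4% in Cox4i1, 7.54% in Atp5g1 and 6.25% in Cox6a1. Cox6a2 shares 70 exonic bases with Itgad on the opposite strand. Total counts per mouse ranged from 28208561 to 126435936. Groups and letters (A to D) were taken from the sample titles. Gene types and positions came from GENCODE M21, which precedes the release behind the counts and holds all 98 members under the same version.

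Each comparison used edgeR's quasi-likelihood test (edgeR 4.0.16, R 4.3.3) on its 8 mice, with filterByExpr, TMM scaling and Benjamini-Hochberg adjustment over all genes tested, at an adjusted p under 0.05. An F test covered all 24 mice. Medians over members are descriptions without a test. Per-mouse means used members with a mean of at least 1 CPM and under 90% of windows shared with other annotated genes, a choice made after the data were seen. Named were the 13 mitochondrial genes, fixed catalytic subunits and tissue isoforms, and the 3 largest rises and falls per comparison without overlap between mice. The members and lists were chosen with earlier results of these data known. Alternatives were DESeq2 (1.42.0), its size factors, all 24 mice in 1 fit, no filter, scaling over nuclear genes, GC and length offsets, the replicate letter or animal series as a block, a fold threshold and each mouse left out. The test was tried beforehand on simulated day 8 and control counts, with the same assumed spread for every gene. It recovered 11% of genes changed 1.25-fold and 90% of those changed 1.5-fold. A p that misses the threshold therefore does not show that a member did not change. The same letter in different groups did not pair the mice (correlations of deviations from -0.17 to 0.165). Each p-value sets a group difference against the spread between these mice. Except for day 8 against control, that difference cannot be told apart from one between identifier series. All controls were taken on day 8, so against control the day taken also differs for the other groups.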

Additional observations from a re-analysis of the deposited data

Results flagged for a closer look

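Of 270 groups of 4 mice examined, 15 held a value far from the other 3, where chance gives about 1 in 20, and no cause was tested. Rapamycin mouse D was low for Uqcrc1 (96.5 CPM against 120.9 to 123.7 CPM in the others), Atp5g2 (12.4 against 14.9 to 15.3 CPM) and Cox5a (21 against 24.1 to 24.4 CPM). Day 13 mouse A was low for the mean of nuclear complex III, at 0.458 on the log2 scale against 0.569 to 0.585, and for Cox5b (102.5 against 126.5 to 129.1 CPM), and day 13 mouse B was high for Sdhb (106.4 against 92 to 92.2 CPM). Control mouse D was low for Ndufv1 (97.6 against 101.8 to 102.1 CPM) and high for Uqcrc1 (124.0 against 120.7 to 121.2 CPM) and Uqcrq (26.6 against 23.6 to 23.9 CPM), and control mouse A was high for mt-Nd1 (1319.0 against 1049.6 to 1074.1 CPM). On day 4, mouse A was low for Uqcrc1 (128.1 against 136.2 to 137.9 CPM) and Cox6a1 (85.4 against 96.4 to 98 CPM), mouse B was high for Ndufa4 (104.2 against 94.4 to 95.3 CPM) and mouse C was low for mt-Co1 (6013.8 against 6495.8 to 6564.6 CPM). On day 8, mouse D was low for Cox6a1 (112.9 against 120.4 to 121.6 CPM).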

How the results depend on the processing

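The counts of changed members were 3, 42, 57 and 69 on days 4, 6, 8 and 13, 2 for rapamycin against control and 71 against day 13. In the same order, a log2 threshold of 0.5 left 0, 1, 5, 33, 0 and 45. DESeq2 gave 7 on day 4 and 4 for rapamycin against control, the fit of all 24 mice 0 on day 4 and 11 on day 6, and the GC and length offsets 1 on day 4 and 1 for rapamycin against control. Members with under 20% of windows shared, an alternative chosen after seeing the data, gave 1 for rapamycin against control. With 1 mouse left out, counts ran from 1 to 3 on day 4 and from 1 to 5 for rapamycin against control. The offsets moved the nuclear median to 0.195 on day 6 and the mitochondrial medians to 0.366 on day 13 and -0.608 for rapamycin against day 13. They turned mt-Nd3 from -0.13 to 0.402 on day 13 and from 0.20 to -0.520 for rapamycin against day 13. The cause was not tested. With the replicate letter as a block, counts were 4, 30, 50, 67, 3 and 64, and 13 of 86 calls on named members were lost. DESeq2 and its size factors lost 0 of these 86 calls, the offsets 9, the fit of all 24 mice 11 and the fit without a filter 5, and leaving out 1 mouse lost 93 and kept 595. Some named members were chosen for large differences in these comparisons, so these calls do not stand for all members.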
